A study of Mus musculus with 2 samples.

Results

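Immunoglobulin constant region genes were followed through the blood leukocytes of WT and APP/PS1 mice by single-cell RNA sequencing. The 8 genes, chosen by name among the 32285 genes of the count matrices, were the heavy chain constant genes Ighm, Ighd and Igha, the light chain constant genes Igkc, Iglc1, Iglc2 and Iglc3, and Jchain, which encodes the joining chain of secreted polymers. Their unique molecular identifiers (UMIs, 1 per captured RNA molecule) were summed per library over each cell type defined by marker genes, and the B and plasma cells were set against the level in neutrophil and monocyte droplets.

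The study enriched neutrophils from peripheral blood with a magnetic negative-selection kit and made 1 library (10x Genomics 3′ chemistry) for each genotype. The WT library came from 3 pooled mice without transgenes (C57BL/6J in the study's methods), and the APP/PS1 library from 3 pooled mice carrying the APP and PS1 transgenes, a model of amyloid deposition in Alzheimer's disease. The APP/PS1 mice were 7-month-old females, and the same age was given for the WT mice. No treatment was given to either group. The enrichment aims to remove B cells, so those described here are the ones that remained and their number is no measure of blood B cells. With 1 library per genotype no test between genotypes was possible, and a difference between genotypes cannot be told apart from a difference between pools or libraries. All intervals below are exact 95% intervals that cover counting error only.

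An antibody consists of paired heavy and light chains, each with a variable part and a constant part. Naive B cells carry IgM and IgD on their surface, encoded by Ighm and Ighd from 1 long transcript that is spliced in alternative ways, and class switching replaces these by IgG, IgE or IgA. Each B cell normally uses either the kappa light chain (Igkc) or a lambda light chain (an Iglc gene), and plasma cells turn to secreting their antibody in large amounts. Jchain links secreted IgA and IgM into polymers that can be carried across epithelia, and IgA plasma cells are known mainly from mucosal tissue.

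In the mm10 genome (GRCm38, GENCODE M21), the heavy chain genes lie on the minus strand of chromosome 12, with Igha at 113254830-113260236, Ighd at 113406604-113416324 and Ighm at 113418558-113422730. Igkc occupies 70726435-70726966 on the plus strand of chromosome 6, and Jchain 88519809-88527891 on the minus strand of chromosome 5. The lambda genes lie on the minus strand of chromosome 16, with Iglc1 at 19061618-19062071, Iglc3 at 19065230-19065681 and Iglc2 at 19198396-19200351. The ends of the 3 lambda coding regions show how well short 3′ reads can separate these genes, and the last 90 coding bases of each are given here as annotated transcripts run, 5′ to 3′. Capitals mark a base that differs from the one shared by the other lambda genes at the same position counted from the end.
Iglc1: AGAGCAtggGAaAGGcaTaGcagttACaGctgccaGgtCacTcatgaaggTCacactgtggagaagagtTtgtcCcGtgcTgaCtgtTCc
Iglc2: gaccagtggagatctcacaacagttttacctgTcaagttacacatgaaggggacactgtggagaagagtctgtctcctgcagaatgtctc
Iglc3: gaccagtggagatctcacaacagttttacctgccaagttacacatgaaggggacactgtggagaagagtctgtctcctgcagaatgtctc
These stretches lie at chr16:19061755-19061844, chr16:19198539-19198628 and chr16:19065368-19065457 in the same order. Iglc1 differs at 28 of the 90 positions and Iglc2 at 1, and over the whole coding region Iglc2 and Iglc3 share 96.2% of aligned columns whereas Iglc1 shares 73.4% with Iglc2 and 74.2% with Iglc3. Over the last 90 bases of the annotated transcripts, which lie past the coding region, Iglc2 and Iglc3 differ more and share 86.0% of aligned columns. Where reads fell within these genes was not examined, so the split of counts between Iglc2 and Iglc3 is less certain than Iglc1 or the sum of the 3 lambda genes.

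After filtering, 16299 WT and 17047 APP/PS1 barcodes were kept, from libraries of 92458623 and 84870864 UMIs with medians of 3345 and 3115 UMIs per barcode. The libraries shared 83 barcode sequences, of which 78 were kept in both, and 2 B-like or plasma-like cells carried such a kept shared sequence. Cells were clustered without 393 immunoglobulin gene segments and Jchain, so none of the 8 genes shaped the cell types. There were 253 WT and 281 APP/PS1 B-like cells, 9 and 9 plasma-like cells, 7813 and 9916 neutrophil-like droplets, and 5364 and 3708 monocyte-like droplets. The summed level of the 10 B cell markers was 8856 and 8982 counts per 1000000 UMIs (CPM) in B-like cells against 17.6 and 25.5 CPM in neutrophil-like droplets, and that of the 10 plasma cell markers was 9342 and 9597 CPM in plasma-like against 926 and 1026 CPM in B-like cells. Tnfrsf17, which encodes the plasma cell receptor BCMA, was at 0 in B-like cells and Pax5, the B cell identity factor, was at 0 in plasma-like cells. Each was the only gene of its list of 10 at 0 there. The B cell markers summed to 2191 and 2059 CPM in plasma-like cells. The neutrophil markers summed to 7023 and 9128 CPM in plasma-like cells and to 1852 and 1791 CPM in B-like cells. Within the label "neutrophil" given to the samples, neutrophil-like droplets made up 47.9% of the WT and 58.2% of the APP/PS1 barcodes.

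The immunoglobulin genes took 1.52% of all UMIs of WT and 1.72% of APP/PS1 B-like cells, 21.7% and 36.3% of those of plasma-like cells, and 0.0113% and 0.0295% of those of neutrophil-like droplets. The last value includes 2 APP/PS1 droplets, described further on, in which immunoglobulin took 28.0% and 31.5% of the UMIs. B-like cells carried Ighm with Ighd, Igkc and all 3 lambda genes, whereas plasma-like cells carried chiefly Igha, Igkc and Jchain. In APP/PS1 plasma-like cells Iglc1, nearly all from 1 cell, stood above Jchain, at 36895 against 27576 CPM. In B-like against neutrophil-like droplets, 6 of the 8 genes were over 2-fold higher in both libraries, where 33.0% of all 8743 genes with at least 50 UMIs in each library were so called. These 6 were also over 10-fold higher in both libraries, where 7.32% of genes were. The exceptions were Igha and Jchain, which passed in WT but not in APP/PS1, and all 8 passed (background again 33.0%) once the same 2 APP/PS1 droplets were left out of the neutrophil-like sum. The median log2 ratio of the 8 genes was 9.08 in WT and 6.64 in APP/PS1, beside 0.40 and 0.37 for all genes measured.

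**Figure D1:**
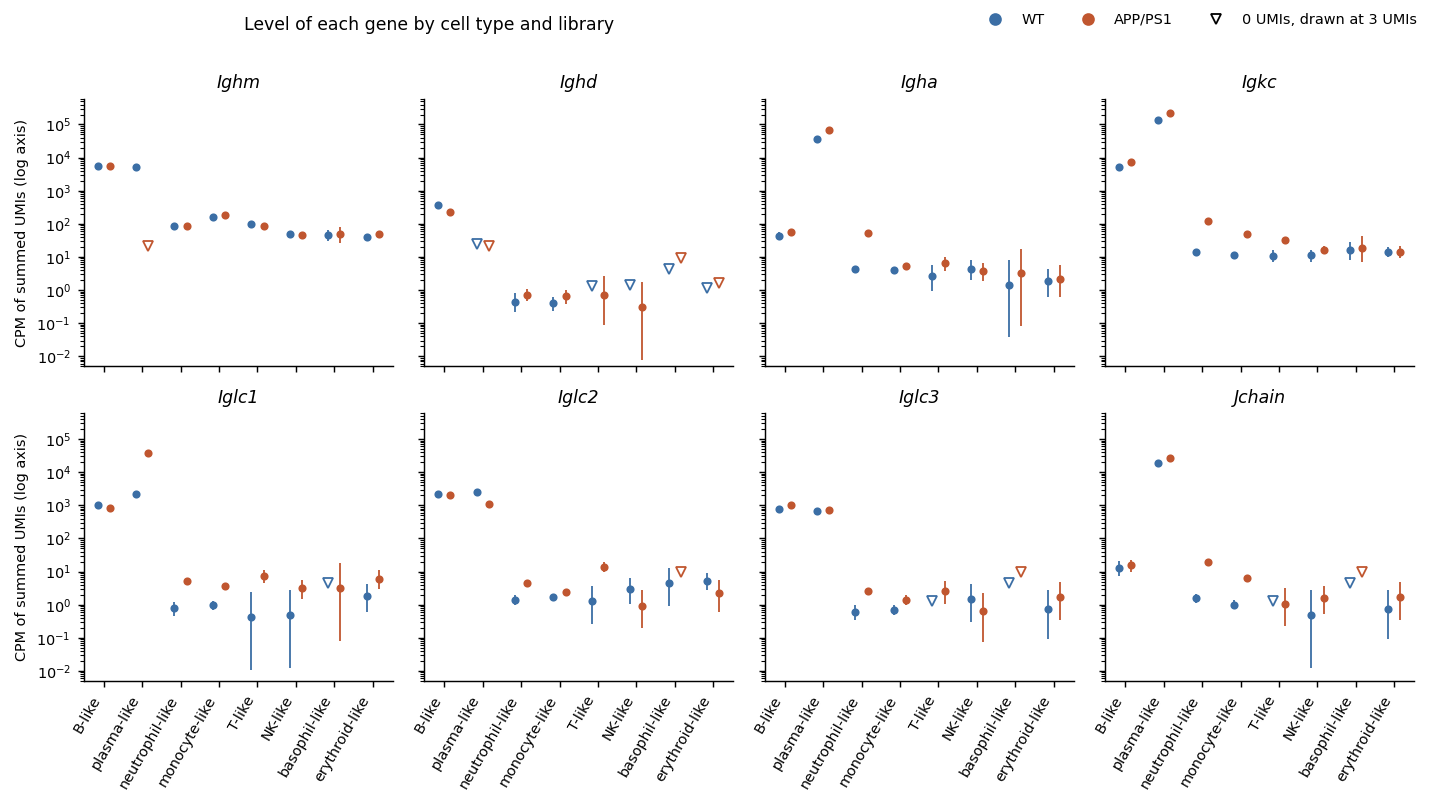
Level of each gene as CPM of summed UMIs (log axis) in 8 cell types, with WT in blue and APP/PS1 in red, bars for 95% counting intervals and open triangles for 0 UMIs drawn at the level of 3 UMIs. Igkc was highest in plasma-like cells at 137304 and 224327 CPM, Ighd was highest in B-like cells, and Ighm stood between 40.0 and 186 CPM in the droplets of every other type shown apart from plasma-like cells.

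The plot of levels by cell type sets these values side by side. A CPM value here is a count of 3′ ends, which is not divided by gene length, and it does not separate the membrane from the secreted form of a heavy chain.

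Ighm, the heavy chain of IgM, gave 6914 UMIs or 5588 CPM (5457 to 5721) in WT B-like cells and 8871 UMIs or 5504 CPM (5390 to 5620) in APP/PS1 B-like cells. In neutrophil-like droplets it reached 87.3 CPM (83.7 to 91.1) in WT, against 87.4 CPM (84.3 to 90.6) for APP/PS1. B-like cells were 64-fold (61 to 67) above neutrophil-like droplets in WT and 63-fold (60 to 66) above them in APP/PS1. The libraries did not differ beyond counting error in either cell type.

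Ighd, the heavy chain of IgD that marks mature naive B cells, gave 449 UMIs or 363 CPM (330 to 398) in WT and 373 UMIs or 231 CPM (209 to 256) in APP/PS1 B-like cells. Neutrophil-like droplets held 11 and 25 Ighd UMIs in all, or 0.445 and 0.729 CPM. Ighd was thus 816-fold (452 to 1646) and 317-fold (212 to 497) higher in B-like cells. Of all Ighd UMIs, 72.5% in WT and 74.3% in APP/PS1 were in B-like cells, and 14.9% and 9.2% were in droplets with both B cell and neutrophil markers. Among the 8 genes, the share of UMIs in B-like cells was highest for Ighd in both libraries.

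Igha, the heavy chain of IgA, gave 55 and 89 UMIs in B-like cells, or 44.5 CPM (33.5 to 57.9) for WT against 55.2 CPM (44.4 to 68.0) for APP/PS1. Only 15 of 253 WT (5.93%) and 30 of 281 APP/PS1 (10.7%) B-like cells had an Igha UMI, where neutrophil-like droplets, at median depths of 2553 and 2704 UMIs against 4435 and 5775, gave 1.33% and 2.43%. With every cell thinned to 1000 UMIs these shares became 2.37% and 3.91% in B-like cells and 0.467% and 0.864% in neutrophil-like droplets. IgA-class RNA was concentrated elsewhere: 79.3% of the WT and 78.8% of the APP/PS1 Igha UMIs lay in the 9 plasma-like cells of each library.

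The IgG and IgE heavy chain genes, which belong to the same locus, had few UMIs in B-like cells. Ighg3 gave 42 and 82 UMIs in B-like cells, Ighg2b 27 and 53, and Ighg2c 17 and 45. Ighg1 gave 0 UMIs in WT and 31 in APP/PS1 B-like cells, and Ighe gave 0 in B-like and plasma-like cells of both libraries. Over 50% of the heavy chain UMIs came from Ighm in 214 of the 222 WT B-like cells with at least 10 such UMIs (96.4%, 93.0 to 98.4) and in 245 of 255 APP/PS1 cells (96.1%, 92.9 to 98.1). Igha led in 2 WT and 3 APP/PS1 B-like cells.

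Igkc, the constant gene of the kappa light chain, gave 6238 UMIs or 5042 CPM (4917 to 5168) in WT and 11580 UMIs or 7185 CPM (7055 to 7317) in APP/PS1 B-like cells. The neutrophil-like level was 14.0 CPM (12.5 to 15.5) for WT against 118 CPM (115 to 122) for APP/PS1, the latter falling to 24.9 CPM (23.3 to 26.6) without the 2 droplets. B-like cells were 361-fold (324 to 404) above neutrophil-like droplets in WT and 61-fold (58.5 to 62.9) in APP/PS1, or 289-fold (269 to 310) without those 2 droplets. Without these 2 of 9916 droplets, 853 of the 4060 Igkc UMIs were left.

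Of the lambda genes, Iglc2 gave 2136 CPM (2055 to 2219) in WT B-like cells, where APP/PS1 had 2075 CPM (2005 to 2146). Iglc1 gave 993 CPM (939 to 1050) and 824 CPM (780 to 870). Iglc3 gave 803 CPM (753 to 854) and 1052 CPM (1002 to 1103). All 3 were under 6 CPM in the neutrophil-like droplets of both libraries, and in WT the B-like level was 1293-fold (824 to 2154), 1553-fold (1109 to 2248) and 1323-fold (798 to 2373) higher for Iglc1, Iglc2 and Iglc3. In APP/PS1 it was 157-fold (134 to 184), 450-fold (384 to 531) and 414-fold (334 to 520) higher in the same order. Together the lambda genes gave 0.780 UMIs (0.751 to 0.810) per Igkc UMI in WT and 0.550 (0.533 to 0.567) in APP/PS1 B-like cells.

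Jchain was nearly absent from B-like cells, with 16 UMIs or 12.9 CPM (7.4 to 21) in WT and 25 UMIs or 15.5 CPM (10.0 to 22.9) in APP/PS1. It was found in 8 of 253 and 9 of 281 B-like cells, or 3.16% and 3.2%, against 0.499% and 0.595% of neutrophil-like droplets. In plasma-like cells Jchain reached 18652 CPM (17901 to 19426) in WT, and APP/PS1 had 27576 CPM (26702 to 28471), which is 1442-fold (886 to 2528) and 1778-fold (1202 to 2751) the B-like level. Jchain and Igha were the genes whose plasma-like level stood furthest above the B-like level among the 8.

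The plasma-like cells differed from the B-like cells in 5 of the 8 genes in both libraries. Igha, Igkc, Iglc1 and Jchain were over 2-fold higher, where 5.28% of 3255 genes were so called, and Ighd was over 2-fold lower, where 23.7% were so called. The Iglc1 call in APP/PS1 rested on 1 cell: without it the log2 ratio was 0.76 (0.52 to 0.99), and 3 genes, not 4, were over 2-fold higher in both libraries. Igha, Igkc and Jchain, 3 of the 8, were over 10-fold higher, where 0.645% of genes were. Igha was 831-fold (637 to 1105) higher in WT and 1259-fold (1022 to 1569) in APP/PS1, and Igkc was 27.2-fold (26.5 to 28.0) and 31.2-fold (30.6 to 31.9) higher. No Ighd UMI was found in the plasma-like cells of either library, and 3 UMIs, the limit that a count of 0 allows over the group, would be 24.1 and 22.0 CPM, at most 0.0663 and 0.0950 of the B-like level. Iglc2 and Iglc3 did not pass in either direction, with plasma-like to B-like ratios of 1.17 (1.04 to 1.32) and 0.537 (0.453 to 0.632) for Iglc2 and 0.850 (0.673 to 1.06) and 0.676 (0.545 to 0.829) for Iglc3. Ighm stood at 5361 CPM in WT plasma-like cells, 0.959 (0.885 to 1.04) of the B-like level, and at 0 UMIs in APP/PS1.

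The 18 plasma-like cells can be described singly, as drawn in the plot of single plasma-like cells. In the 9 WT cells immunoglobulin took between 4.67% and 42.7% of the UMIs with a median of 23.4%, and in the 9 APP/PS1 cells between 9.18% and 53.2% with a median of 38.9%, so the ranges overlapped. The Igha count had a median of 571 UMIs in WT, with a lowest of 0 and a highest of 1244, and a median of 960 in APP/PS1, with 368 and 1782 as its ends. The Jchain count had a median of 282 UMIs in WT (lowest 0, highest 656) and 432 in APP/PS1 (lowest 179, highest 689). Of the 18 cells, 1 in WT with 295 UMIs and 2 in APP/PS1 with 236 and 103 UMIs stood out for the neutrophil gene S100a8, which gave 2 to 16 UMIs in the others. These cells share 1 library in each genotype and are not replicates of it.

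Igha gave over 50% of the heavy chain UMIs in 6 of 9 WT plasma-like cells (66.7%, 29.9 to 92.5) and in 9 of 9 APP/PS1 cells (100%, 66.4 to 100). In WT, Ighg1 led in 1 cell, with 1341 Ighg1 UMIs and 0 of Igha, and Ighm led in 2 cells, with 507 and 161 UMIs. Those 2 cells were unlike the other 16: they had 0 UMIs of Tnfrsf17 and 37 and 0 UMIs of Jchain, whereas the others had between 4 and 20 UMIs of Tnfrsf17. The B cell gene Ms4a1 gave 9 and 3 UMIs in them and at most 3 in the others. Without them Ighm was also at 0 UMIs in the WT plasma-like cells, and 2 genes, Ighm and Ighd, were over 2-fold lower than in B-like cells. Kappa was the main light chain in 17 of the 18 cells. The exception was 1 APP/PS1 cell with 4864 Iglc1 UMIs, 200 Igkc UMIs and 725 Igha UMIs, which held nearly all of the 5036 Iglc1 UMIs of the APP/PS1 plasma-like cells.

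**Figure D2:**
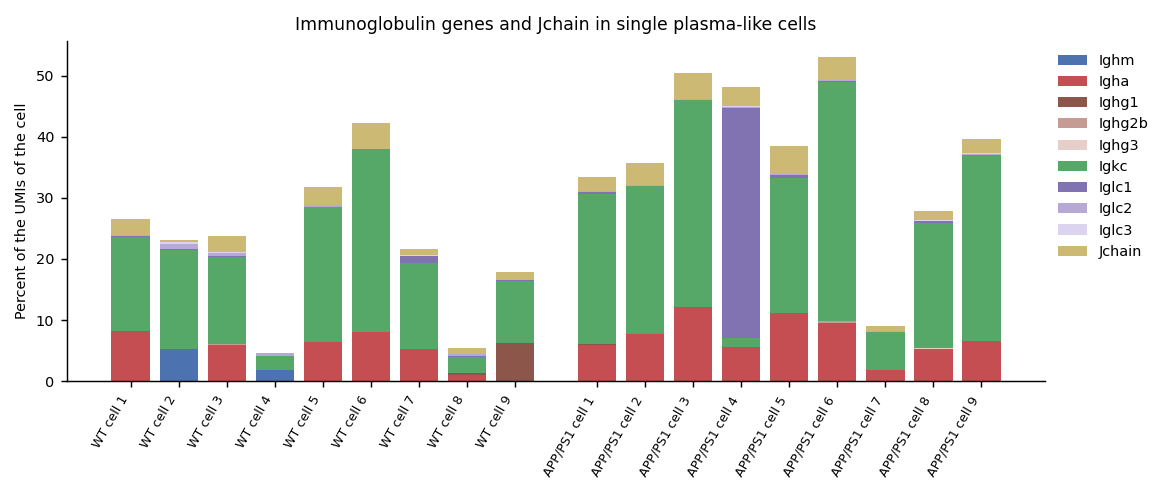
Percent of the UMIs of each of the 18 plasma-like cells taken by heavy chain genes, light chain genes and Jchain, each as 1 colour of a stacked bar. Igha is the leading heavy chain in 6 of 9 WT and 9 of 9 APP/PS1 cells, Igkc is the leading light chain in 17 cells, and Iglc1 leads in APP/PS1 cell 4.

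Light chain use was also read cell by cell in the B-like cells, in the 250 WT and 277 APP/PS1 cells with at least 10 light chain UMIs. Cells with over 80% lambda UMIs numbered 55 in WT, a share of 22.0% (17.0 to 27.7), and 43 among the APP/PS1 cells, a share of 15.5% (11.5 to 20.3). The difference, APP/PS1 minus WT, was -6.48 percentage points (-13.4 to 0.445), an interval that includes 0 at this limit. A further 21 WT and 16 APP/PS1 cells had between 50% and 80% lambda UMIs. Shares at a 50% limit are given with the other settings, where no interval of the difference was computed. Of the lambda cells, 42 in WT and 30 in APP/PS1 had no Igkc UMI at all. In lambda cells, Iglc2 was the leading lambda gene in 32 WT and 24 APP/PS1 cells, Iglc1 in 16 and 11, and Iglc3 in 7 and 8.

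Cells with under 20% lambda UMIs, the mirror of that limit, were 62 in WT and 92 in APP/PS1, so that 133 and 142 cells lay between. The lambda share peaked at 15 to 35% of a cell's light chain UMIs, and only 4 WT and 1 APP/PS1 cells had no lambda UMI. In the cells under 20% the lambda genes stood at 1261 CPM in WT, with 1866 CPM for APP/PS1, beside 8251 and 11430 CPM of Igkc. In the lambda cells they stood at 7676 and 9693 CPM, beside 219 and 350 CPM of Igkc. The lambda level of the cells under 20% was thus far above the sum of the 3 lambda genes in neutrophil-like droplets, and the 2 light chain classes were unequal in how far the other class's UMIs reached into them. The cause was not tested.

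**Figure D3:**
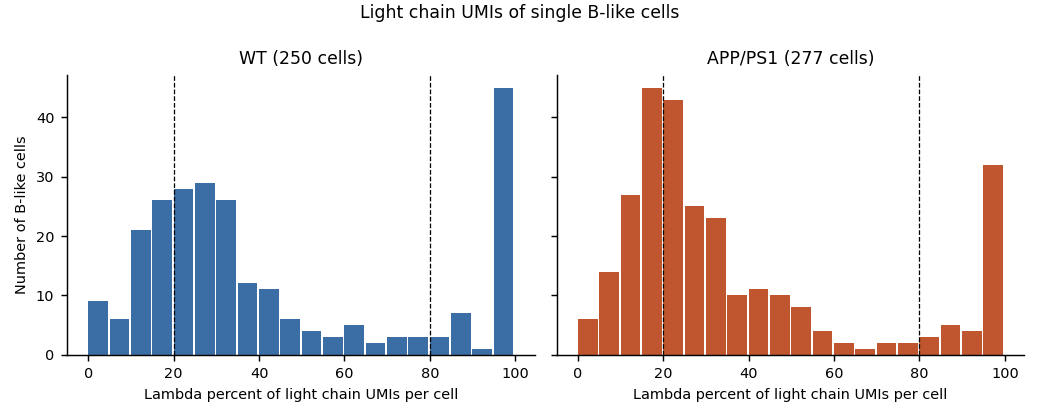
Number of B-like cells (vertical axis) by the percent of their light chain UMIs that came from the 3 lambda genes (horizontal axis, bins of 5 percentage points), with dashed lines at 20% and 80%. Both libraries show a broad group around 10 to 35% and a separate group at 95 to 100%, which holds 45 WT and 32 APP/PS1 cells.

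The B-like cells fell into 3 sub-clusters in which Ighd differed. In the cluster marked by Fcer2a (CD23, the low-affinity IgE receptor of follicular B cells), with 89 WT and 37 APP/PS1 cells, Ighd stood at 850 and 805 CPM. In the largest cluster, led by Fcmr (the IgM receptor), with 143 and 158 cells, it stood at 236 and 230 CPM. In the cluster led by Ms4a1 (CD20) when set against all other cells, with 21 and 86 cells, it stood at 149 and 118 CPM. Ighm varied less, between 4344 and 5989 CPM over the same 6 sums, and Jchain was at 0 UMIs in the Fcer2a cluster of both libraries. Lambda cells were 42 of 142 (29.6%, 22.2 to 37.8) in WT and 23 of 157 (14.6%, 9.52 to 21.2) in APP/PS1 in the Fcmr cluster, beside 10 of 87 and 4 of 34 in the Fcer2a cluster and 3 of 21 and 16 of 86 in the Ms4a1 cluster. Ms4a1 was not particular to the cluster named by it, at 1674 CPM in WT and 1745 in APP/PS1, against 1092 and 1682 CPM in the Fcer2a cluster.

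In myeloid droplets the 8 genes were present at low levels with another composition. Ighm made up 37.3% of the UMIs of the 8 genes in WT and 32.5% in APP/PS1 B-like cells, and 79.1% and 66.1% in neutrophil-like and 89.3% and 83.5% in monocyte-like droplets, here without the droplets of over 5% immunoglobulin. Per Igkc UMI there were 1.11 (1.07 to 1.15) Ighm UMIs in WT and 0.766 (0.745 to 0.788) in APP/PS1 B-like cells. The same ratio was 6.26 (5.58 to 7.03) and 3.51 (3.25 to 3.79) in neutrophil-like droplets and 14.9 (13.6 to 16.4) and 9.11 (8.31 to 10.0) in monocyte-like droplets. The ratio of these genes was therefore not the same in all cell types of a library. The plot of composition shows this for 8 cell types, T-like, NK-like, basophil-like and erythroid-like droplets included.

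**Figure D4:**
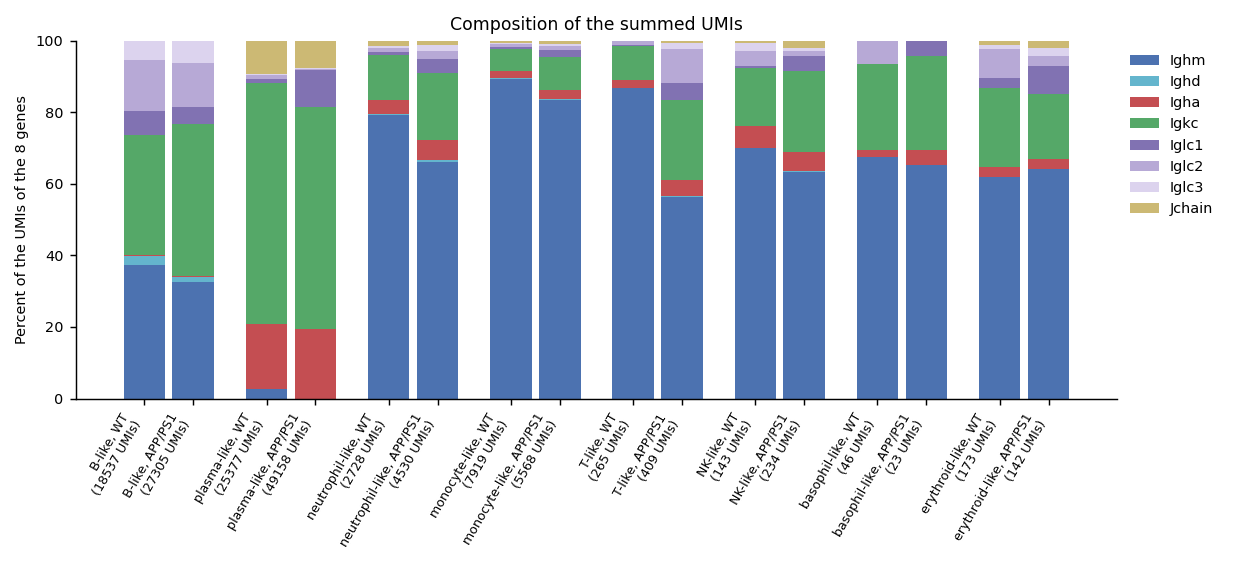
Share of each of the 8 genes in their summed UMIs (vertical axis, percent) for 8 cell types in each library, without droplets of over 5% immunoglobulin outside the B-like and plasma-like clusters, with the UMI sum in the axis labels. Ighm takes 37.3% and 32.5% in B-like cells and 89.3% and 83.5% in monocyte-like droplets, whereas Igkc takes 67.4% and 62.3% in plasma-like cells.

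Ighm was also higher in monocyte-like than in neutrophil-like droplets, at 165 CPM (162 to 169) in WT, and at 166 CPM (162 to 171) for APP/PS1 without 1 droplet of over 5% immunoglobulin. The ratio was 1.89 (1.81 to 1.99) in WT and 1.90 (1.82 to 1.99) in APP/PS1, in a comparison where 55.2% of genes were over 1.5-fold higher in both libraries, so this is no mark of the gene. Igkc went the other way, with ratios of 0.797 (0.692 to 0.918) and 0.733 (0.656 to 0.819). In droplets with 0 UMIs of every B and plasma cell marker, Ighm stood at 157 CPM (141 to 175) in 567 WT and 155 CPM (136 to 176) in 364 APP/PS1 monocyte-like droplets, and at 81.7 CPM (75.7 to 88.0) in 3359 WT and 84.1 CPM (78.5 to 89.9) in 3908 APP/PS1 neutrophil-like droplets. The plasma cell markers include Xbp1 and Sec11c, at 176 and 242 CPM in WT monocyte-like and 104 and 206 CPM in WT neutrophil-like droplets. This filter therefore does not select on RNA of B and plasma cells alone, and it cannot show where the Ighm UMIs came from. An Ighm UMI was seen in 58.3% of monocyte-like droplets of both libraries and in 19.7% and 20.3% of neutrophil-like droplets, at median depths of 6750 and 2630 UMIs over both libraries. After thinning to 1000 UMIs these shares were 15.5% and 14.4% in monocyte-like droplets, 8.56% and 7.82% in neutrophil-like droplets, and 94.1% and 92.9% in B-like cells. T-like droplets gave 98.8 and 83.2 CPM of Ighm, NK-like 48.6 and 46.3, and erythroid-like 40.0 and 50.7. Whether these UMIs are the droplets' own RNA or RNA carried over from other cells was not tested.

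Outside the B-like and plasma-like clusters, 10 droplets held over 5% immunoglobulin UMIs, 2 in WT and 8 in APP/PS1. In APP/PS1, 2 were neutrophil-like, in the cluster led by the granule genes Camp, Ngp and Ltf. They carried 592 and 955 Igha UMIs, 1441 and 1766 Igkc UMIs, 254 and 347 Jchain UMIs and 10 and 6 UMIs of Tnfrsf17, together with 404 and 419 UMIs of the neutrophil gene S100a8. In APP/PS1, 1 droplet was monocyte-like, with 546 Ighm, 826 Igkc and 137 Jchain UMIs. In WT, 1 droplet had both B cell and neutrophil markers, with 769 Igha, 2020 Igkc and 229 Jchain UMIs beside 493 of S100a8. The remaining 5 of APP/PS1 and 1 of WT were in a shallow B-like cluster with a median of 1066 UMIs, and took 37.1% to 76.7% of their UMIs from immunoglobulin. Of those 6 shallow droplets, 5 were led by Ighm, and the 6 carried 41 to 290 Jchain UMIs and 1 to 22 UMIs of Mzb1. All had at most 3 UMIs of Xbp1, a driver of the secretory state, at depths of 1868 to 6338 UMIs. Plasma-like cells had median Xbp1 counts of 9 in WT and 10 in APP/PS1, at median depths of 12563 and 12973 UMIs.

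A few cells and droplets decided several sums. In APP/PS1 the 3 cells with most Iglc1 UMIs held 82.6% of the 13222 Iglc1 UMIs of the library, against 13.7% of 1809 in WT. All droplets of over 5% immunoglobulin, 12 in WT and 19 in APP/PS1, of which 8 and 9 were plasma-like cells, held 95.2% of the Igha and 97.5% of the Jchain UMIs in APP/PS1 and 92.6% and 95.6% in WT. The same droplets held 0 Ighd UMIs in APP/PS1 and 0.162% of those in WT.

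Between genotypes, none of the 7 genes measured in B-like cells (at least 50 UMIs over both libraries, which left out Jchain) was over 2-fold apart, where 1.27% of 5576 genes were. Under other settings for which droplets counted as B-like, Iglc1 passed with all cells clustered at 0.6 and no re-clustering (log2 ratio 2.57). Jchain passed with other depth limits (2.51 with percentile limits and -1.48 with a minimum of 500 genes). Iglc1, Igha and Jchain passed with the shallow B-like droplets counted (2.13, 2.77 and 3.72). Igkc had the highest APP/PS1 to WT ratio, 1.43 (1.38 to 1.47), followed by Iglc3 at 1.31 (1.21 to 1.42), and Ighd had the lowest, 0.638 (0.554 to 0.733). Iglc1 stood at 0.830 (0.767 to 0.897), and the intervals of Ighm (0.985, 0.954 to 1.02), Iglc2 (0.971, 0.923 to 1.02) and Igha (1.24, 0.878 to 1.77) included 1. The sub-clusters had different shares of the 2 libraries, and within them the Ighd ratio was 0.976 (0.801 to 1.19) in the Fcmr cluster, 0.948 (0.734 to 1.21) in the Fcer2a cluster and 0.795 (0.466 to 1.42) in the Ms4a1 cluster. The Igkc ratio was 1.5 (1.44 to 1.57), 1.04 (0.960 to 1.13) and 1.44 (1.33 to 1.56) in the same order.

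In plasma-like cells 3 of 7 genes were over 2-fold apart, where 7.34% of 504 genes were, and each rested on few cells. Iglc1 was 16.6-fold (14.7 to 18.8) higher in APP/PS1, and without the 1 Iglc1 cell its log2 ratio was -0.67 in place of 4.05. Ighm, at 668 UMIs in WT and 0 in APP/PS1, was all from the 2 WT cells already named. Iglc2 stood at 2504 CPM (2234 to 2798) in WT, with 1114 CPM (944 to 1305) for APP/PS1, a ratio of 0.445 (0.364 to 0.542), and without the 2 Ighm cells only Iglc1 was over 2-fold apart. Igha had a ratio of 1.88 (1.82 to 1.95), Igkc of 1.63 (1.60 to 1.67) and Jchain of 1.48 (1.40 to 1.56). With 9 cells in each library these intervals leave out the spread between cells, which spanned the ranges given for the single cells.

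In neutrophil-like droplets 6 of 7 genes were over 2-fold higher in APP/PS1, where 0.818% of genes were, and all but Ighm were among them. Without the 2 Igha droplets 3 remained, Iglc1 at 6.72-fold (4.18 to 11.4), Iglc2 at 2.21-fold (1.49 to 3.36) and Iglc3 at 3.32-fold (1.88 to 6.25), beside 0.778% of genes. Ighm was equal within counting error, at 1.0 (0.947 to 1.06), Igkc stood at 1.79 (1.57 to 2.03), Igha at 1.70 (1.35 to 2.15) and Jchain at 1.06 (0.690 to 1.63). The Iglc1 counts behind this were 19 UMIs over 7813 WT droplets and 177 over 9914 APP/PS1 droplets. In monocyte-like droplets, without the 1 droplet of over 5% immunoglobulin, only Iglc1 was over 2-fold apart, 3.84-fold (2.65 to 5.66) higher in APP/PS1 where 1.19% of genes were over 2-fold apart. Iglc3 stood just under that limit there at 1.99 (1.2 to 3.31), and Iglc2 at 1.22 (0.851 to 1.74). The part of the few cells rich in these genes in the droplets' levels was not tested.

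**Figure D5:**
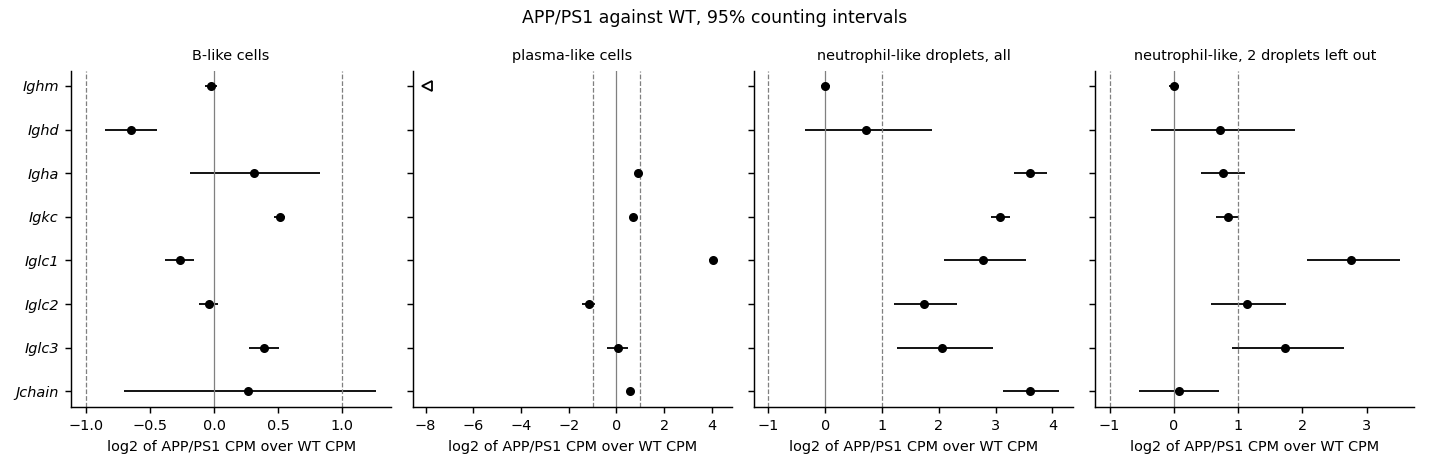
Log2 of the APP/PS1 over the WT CPM for each gene with 95% counting intervals, in B-like cells, plasma-like cells and neutrophil-like droplets with and without the 2 droplets rich in Igha, with dashed lines at 2-fold and a different scale in each panel. No gene passes 2-fold in B-like cells, Iglc1 reaches 4.05 in plasma-like cells, the open triangle for Ighm is an upper bound set by 0 APP/PS1 UMIs, and Ighd has no value there because both libraries had 0 UMIs.

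The plot of genotype ratios places these comparisons beside each other. Igha and Jchain lose most of their difference in neutrophil-like droplets when 2 of 9916 are left out, with the log2 ratio going from 3.61 to 0.76 for Igha and from 3.61 to 0.08 for Jchain.

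Genes that act with immunoglobulin were read from 4 fixed lists. Of 19 genes of immunoglobulin secretion, 14 were measured in plasma-like against B-like cells, and 13 were over 2-fold higher in both libraries and 0 lower, beside 5.28% and 23.7% of all genes. Xbp1, which expands the endoplasmic reticulum, had log2 ratios of 4.45 and 4.66, and Mzb1, a chaperone of IgM assembly, had 3.02 and 2.76. The chaperone Hsp90b1 had 5.13 and 4.04. Irf4, a factor needed for plasma cells, did not pass, at 0.97 and -0.14. Several of these genes were among those that separated the plasma-like cluster, so their direction is a description and not independent of the clustering.

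Of 10 partners of the B cell receptor, 9 were measured, and 6 of them were over 2-fold higher in B-like than in neutrophil-like droplets in both libraries, beside 33.0% of all genes. Cd79a, the signalling chain bound to membrane IgM, had log2 ratios of 10.70 and 9.83. In plasma-like against B-like cells 5 were over 2-fold lower, beside 23.7% of all genes, and 0 higher. Cd79a had -2.59 and -1.65, and the kinase Lyn -2.02 and -2.52.

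Among 6 immunoglobulin receptors and transporters, 4 were measured and all 4 were over 2-fold higher in B-like than in neutrophil-like droplets, beside the same 33.0% of all genes. Fcmr stood at 729 and 534 CPM in B-like cells and at 24.1 and 0 CPM in plasma-like cells. Fcer2a was the only one of 26 measured list genes over 2-fold apart between genotypes in B-like cells, beside 1.27% of all genes, at 100 CPM in WT and 27.9 in APP/PS1, and within the cluster it marks it stood at 418 and 304 CPM. Of 5 class switching genes, only Msh6 was measured in B-like against neutrophil-like droplets and 0 in plasma-like against B-like cells.

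The genes whose level over cell types was most like that of a member were taken by Pearson r of log2(CPM + 1) over 18 points, 9 cell types in each of 2 libraries, which share cells' depth and library. For Igkc the first were Mzb1 (0.984) and Vpreb3 (0.962). For Ighd they were Il5ra (0.996) and Pax5 (0.995), and for Ighm Cd22 (0.876) and Ly6a (0.874). For Igha they were Eaf2 (0.967) and Fkbp11 (0.958), and for Jchain Eaf2 (0.965) and Tnfrsf17 (0.954). These values describe 2 libraries, and a few high points carry each of them.

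Variable gene segments, which sit at the 5′ end of the transcript, were rarely counted by this 3′ assay. In WT B-like cells there were 7.33 Ighv UMIs (5.52 to 9.55) per 1000 heavy chain constant UMIs and 10.1 Igkv UMIs (7.75 to 12.9) per 1000 Igkc UMIs, and in APP/PS1 3.46 (2.38 to 4.86) and 8.89 (7.25 to 10.8). In plasma-like cells Igkv UMIs were 7.72 (6.45 to 9.16) and 6.53 (5.66 to 7.51) per 1000 of Igkc. Without the 2 Igha droplets, neutrophil-like droplets gave 32 and 86 Ighv UMIs, or 13.9 (9.47 to 19.7) and 26.2 (20.9 to 32.4) per 1000 heavy chain constant UMIs. Of these, 16 WT UMIs were of Ighv1-64 and 34 APP/PS1 UMIs were of Ighv8-10. Monocyte-like droplets, without the 1 droplet of over 5% immunoglobulin, gave 6 and 5 Ighv UMIs. That was 0.823 (0.302 to 1.79) and 1.04 (0.337 to 2.42) per 1000. These counts are too few to follow clones.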

How the data were processed

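Neutrophil-enriched blood cells of WT and APP/PS1 mice were profiled in 1 library each. The authors deposited raw UMI counts per gene and barcode, made with Cell Ranger 5.0.0 on mm10 per the submitters' processing notes and not normalized. Here, barcodes with at least 200 genes and at most 10% mitochondrial UMIs were kept, doublets were called with Scrublet, and cells were clustered with scanpy 1.11.5 (2000 variable genes, 15 components, Leiden resolution 0.2, 0.6 for the B cell and shallow clusters) without immunoglobulin genes and Jchain. The automatic Scrublet threshold failed in APP/PS1, so the WT threshold was used for both libraries, which called 9.79% and 8.00% of cells. Clusters were named from fixed marker lists, and a cluster of neutrophil markers with 68.8% called doublets (1205 cells) was left out. Counts were summed per type and library and given as CPM. Exact Poisson, conditional binomial and Clopper-Pearson intervals (95%) cover counting error only, and with 1 library per genotype no test was made; called means over 2-fold. The ratio scripts were tested on simulated data. PCR duplicates are collapsed by UMI. Named genes were the 8 members, the other heavy chain constant genes, variable segments as sums, 4 lists, and the 5 genes most like each member. Coordinates and sequences come from GENCODE M21. The members and lists were chosen with earlier results of these data known. Alternatives covered filters, clustering, doublets, scaling (edgeR 4.0.16 TMM), thresholds and thinning.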

Additional observations from a re-analysis of the deposited data

Results flagged for a closer look

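Immunoglobulin-rich droplets lay outside the B-like and plasma-like clusters, which the comparison of those types does not use. With a limit of 5% immunoglobulin UMIs there were 2 in WT and 8 in APP/PS1, and the difference between the libraries was not tested. Iglc2 went opposite ways between genotypes in 2 cell types: its APP/PS1 to WT ratio was 2.21 in neutrophil-like droplets without the 2 droplets rich in Igha and 0.445 in plasma-like cells. That difference was not tested, and the plasma-like value rests on 9 cells in each library. Without the 2 WT plasma-like cells led by Ighm, Iglc2 was not over 2-fold apart there. With percentile limits on genes and UMIs its plasma-like ratio changed direction.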

How the results depend on the processing

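No paired analysis was possible because each genotype had 1 library and no test was made. Of 758 values for single genes, 545 stayed within their counting interval, 206 moved and 7 changed direction from a main ratio past 2-fold. A change of direction from a smaller main ratio was not counted among these 7. With barcodes held to the 5th to 95th percentile of genes and UMIs, which removes most plasma-like cells, Igha led in 3 WT and 2 APP/PS1 plasma-like cells, 5 genes in plasma-like and 1 in B-like cells were over 2-fold apart between genotypes, and Ighm made up 27.6% of the member UMIs in APP/PS1 neutrophil-like and 69.3% in monocyte-like droplets. Those of the 7 that arose there were log2 ratios of 3.0 for Ighm in APP/PS1 plasma-like against B-like cells, and 1.07 for Ighm and 1.02 for Iglc2 between genotypes in plasma-like cells. With a minimum of 500 genes these were 0.16, 7.55 and 0.44, 1 gene in B-like cells was over 2-fold apart, and Ighm made up 71.2% in APP/PS1 monocyte-like droplets. Another setting clustered all cells at resolution 0.6 and left out the re-clustering in which the plasma-like cells had been separated. The plasma-like cells formed no cluster there, so results that need them had no value. In that setting 1 gene in B-like cells was over 2-fold apart, and the monocyte-like Ighm share was 69.2%. That share was 83.6% with called doublets removed and 83.4% in droplets with no B or plasma marker UMI, where the neutrophil-like share was 66.0% and the WT monocyte-like share 86.2%. Without B marker UMIs, 2 genes were over 2-fold apart in neutrophil-like droplets. With lambda cells set at over 50%, they made up 30.4% in WT and 21.3% in APP/PS1. Chosen after seeing the data, leaving out other droplets over 5% immunoglobulin gave 3 genes in neutrophil-like droplets and Ighm shares of 66.1% and 83.5% in APP/PS1 neutrophil-like and monocyte-like droplets. Counting shallow B-like droplets as B-like gave 3 genes over 2-fold apart. Leaving out the 2 Ighm plasma-like cells gave 2 genes lower than in B-like cells and 1 apart between genotypes, and leaving out the cell with most Iglc1 gave log2 ratios of -0.67 between genotypes and 0.76 against B-like cells for Iglc1. Except where a value's construction shows it, the cause was not tested. Counts of 9 cells limit every plasma-like value.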
